A study of Mus musculus with 14 samples.

Results

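The genes of the nuclear genome that encode the mitochondrial respiratory chain were followed in a mouse leukaemia cell line in which Ogdh, which encodes the E1 enzyme of the 2-oxoglutarate dehydrogenase complex of the tricarboxylic acid cycle, was lowered by inducible RNA interference. Members were chosen by name alone: gene names that begin with Nduf, Uqcr or Atp5, or with Cox and a digit from 4 to 8, and the names Sdha, Sdhb, Sdhc and Sdhd. Of 99 matching names, 7 that contain -ps were left out, which left 92 members of 53465 genes in the count table. They comprise 36 subunits and 8 assembly factors of complex I, 4 subunits of complex II, 8 of complex III, 20 of complex IV and 16 of complex V. Ndufa4 and its relative Ndufa4l2 were counted with complex IV despite their names, and Atp5s, the coupling factor B gene, with complex V.

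The respiratory chain passes electrons from NADH (complex I, NADH dehydrogenase) and succinate (complex II, succinate dehydrogenase) through ubiquinone, complex III (the cytochrome bc1 complex) and cytochrome c to oxygen at complex IV (cytochrome c oxidase), and complex V (ATP synthase) uses the resulting proton gradient to make ATP. The tricarboxylic acid cycle, in which the Ogdh product acts directly upstream of succinyl-CoA, supplies the NADH and succinate. Most subunits are encoded in the nucleus and imported, whereas a few core subunits of complexes I, III, IV and V are encoded in mitochondrial DNA; complex II has none of these. Acute myeloid leukaemia cells are known, in part, for reliance on oxidative phosphorylation.

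All 14 libraries came from 1 line, KL974, labelled a mouse acute myeloid leukaemia (AML) line with the genotype Trp53R172H;shMll3;shNf1, grown with IL3, IL6 and SCF and carrying a lentiviral hairpin linked to blue fluorescent protein (BFP) under doxycycline control. The control hairpin shRen713, which the design gives as the control, was sampled at day 0 without doxycycline, and at day 2 and day 4 of doxycycline as sorted BFP negative (uninduced) and BFP positive (induced) cells. The Ogdh hairpins shOgdh346 and shOgdh2081 were sampled as sorted BFP positive cells at day 4. Each of the 7 groups had 2 libraries; the labels do not say that these came from separate cultures, so the p-values measure the spread between these libraries, which may be technical. Libraries held 913482 to 10271698 counts, of which 1.215% to 1.665% fell on members, and the shallowest was shOgdh2081 replicate 1. Ogdh itself stood at 51.5 to 60.8 CPM (counts scaled by library size to a common total) with the Ogdh hairpins, whereas the induced controls of day 4 had 247 and 267 CPM.

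The labelled cell type was checked against marker genes. Of 10 myeloid and blood progenitor markers, Kit was high (464 to 578 CPM) and Ptprc stood at 5.33 to 15.5 CPM, whereas Cebpa, Elane, Itgam and Cd33 had 0 counts in every library, and Mpo, Cd34 and Csf1r had 1, 2 and 3 counts in all. All 5 erythroid markers were present, with Klf1 at 179 to 256 CPM and Epor at 140 to 211 CPM. The defining markers of the myeloid lineage were thus at or near 0 in a line labelled AML, and the line is named here by its label only. The summed erythroid markers were higher with Ogdh hairpins (603 to 681 CPM) than in control BFP positive cells of day 4 (476 to 494 CPM). The summed mast cell markers, of which Mcpt8 had 1 count in all and Ms4a2 made up most, were also higher (117 to 134.6 CPM against 55.5 to 63.3 CPM). The summed stroma and endothelium markers were lower with Ogdh hairpins (13.1 to 25.3 CPM against 30.7 to 33.2 CPM), as were the megakaryocyte markers (41.7 to 43.8 CPM against 45.6 to 47.3 CPM). The T and B cell markers (1.76 to 3.28 CPM against 0.466 to 1.253 CPM) and the muscle markers (0.176 to 1.09 CPM against 0 CPM) were higher, both at low levels. The part of these shifts in the results that follow was not tested.

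The promoters of these genes are shown first, because nuclear respiratory factor 1 (NRF1), ETS family factors such as GABP, YY1, and oestrogen-related receptors (ERR) are known regulators of respiratory chain genes, and MYC, which binds E-boxes, is known to act on many of them. The RefSeq promoter table (GRCm38.p6, 250 bases before to 50 bases from the start) held 76 of 92 members. On either strand, the NRF1 motif GCGCANGCG occurred in 22 of 76 members (28.9%), against 7.03% of all 27025 genes in the table. The YY1 motif AAGATGGCG occurred in 8 members (10.5%, against 1.64%), and the ETS motif CCGGAAGT in 5 (6.58%, against 4.31%). The E-box CACGTG was in 6 members (7.89%, against 8.09%) and the ERR motif TCAAGGTCA in 2 (2.63%, against 0.466%). Matches to different motifs do not overlap in the stretches printed here. Shown 5′ to 3′ on the gene's strand, with motif matches in capitals, are 5 members called in the Ogdh comparison: Atp5k at chr5:108434419-108434519 (complex V), Ndufaf4 at chr4:24897963-24898112 (complex I assembly), Uqcr11 at chr10:80406801-80406941 (complex III), Sdhd at chr9:50603820-50603969 (complex II) and Cox7a2l at chr17:83514304-83514453 (complex IV). Atp5j and Uqcr10 had smaller adjusted p than Atp5k and Uqcr11 and are not shown. NRF1 matches are more frequent among these 5 than among the 76 members, so no link between a fall and a motif is read from them. Ndufaf4 lies on the plus strand and the others on the minus strand, and at most 30 bases of each stretch lie in annotated exons.
Atp5k: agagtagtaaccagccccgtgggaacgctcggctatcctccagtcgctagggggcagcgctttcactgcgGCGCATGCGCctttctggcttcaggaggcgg
Ndufaf4: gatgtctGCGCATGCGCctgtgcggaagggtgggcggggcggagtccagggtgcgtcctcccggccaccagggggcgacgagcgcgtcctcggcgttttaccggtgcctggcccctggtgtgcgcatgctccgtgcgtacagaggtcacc
Uqcr11: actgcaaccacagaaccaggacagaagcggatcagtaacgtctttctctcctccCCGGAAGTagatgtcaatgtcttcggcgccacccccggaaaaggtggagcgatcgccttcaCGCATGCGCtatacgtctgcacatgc
Sdhd: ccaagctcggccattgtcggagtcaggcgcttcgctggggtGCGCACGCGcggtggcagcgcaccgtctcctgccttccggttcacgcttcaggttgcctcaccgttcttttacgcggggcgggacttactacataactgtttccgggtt
Cox7a2l: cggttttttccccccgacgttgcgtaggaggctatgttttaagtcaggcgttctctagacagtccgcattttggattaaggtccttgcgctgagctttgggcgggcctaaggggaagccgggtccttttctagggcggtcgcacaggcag
In Atp5k and Ndufaf4 the NRF1 letters read the same on both strands and overlap as a single run. Uqcr11 holds an ETS match and, closer to its start, an NRF1 match on the opposite strand. Sdhd holds 1 NRF1 match and, past the printed stretch, 1 ERR match, and none of the 5 motifs was found in the 300 bases searched for Cox7a2l. A match is a description of letters, not of binding.

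Across all libraries the members spanned a wide range of levels. Per kilobase of deposited transcript length, the highest mean levels were those of the catalytic ATP synthase subunits, Atp5b (beta, 561 CPM per kb) and Atp5a1 (alpha, 474 CPM per kb), followed by the cytochrome c oxidase subunits Cox6a1 (362) and Cox8a (309), and by Sdhd (252), a membrane anchor of complex II. By complex, the median level per kb was 181 CPM for the 13 tested members of complex IV, 111 CPM for complex III, 76.7 CPM for complex II, 75.9 CPM for complex V and 58.6 CPM for complex I. The 8 complex I assembly factors, which help build the complex without staying in it, had a median of 13.2 CPM per kb, from 8.79 (Ndufaf2) to 25.8 (Ndufaf1). By this length the lowest member was Atp5l, subunit g of ATP synthase, at 2.05 CPM per kb. Of the 76-base stretches of its principal transcript, 75.7% also occur in other genes, among them 9 pseudogenes, so its count is uncertain. Over its principal transcript alone Atp5l stood at 24.3 CPM per kb, and the lowest member was then Ndufb2, at 5.504 CPM per kb. The deposited length equals the union of annotated exons for 77 of 92 members. Over the principal transcript alone the median of complex V was 236 CPM per kb, next to 233 CPM for complex IV. The order of these complexes thus depends on the length used.

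Within each complex the extremes by deposited length were Ndufc2 (212 CPM per kb) and Ndufb2 (4.28 CPM per kb), both accessory subunits, in complex I, and Sdhd and Sdhc (39.8 CPM per kb), the paired membrane anchors, in complex II. In complex III they were Uqcr10 (221 CPM per kb), a small subunit, and Uqcrq (75.7 CPM per kb), known as the ubiquinone-binding protein QP-C. In complex IV they were Cox6a1 and Cox5a (36.3 CPM per kb), a matrix-side subunit. Over the principal transcript alone, Uqcrh (394 CPM per kb) stood above Uqcr10 (297 CPM per kb) in complex III. On the same scale the extremes of complex IV were Ndufa4 (474 CPM per kb) and Cox7a2l (89.0 CPM per kb), with Cox5a at 118 CPM per kb.

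The complex IV genes include forms that are known from other tissues. Cox4i2, Cox8b and Cox8c had 0 counts in 48249780 counts over all libraries, which allows a mean of up to 0.0622 CPM. Cox6a2 and Cox7a1, the heart and muscle forms, had 17 and 20 counts in all, Cox7b2 had 8 and Ndufa4l2 had 3. These 7 genes did not pass the filter on low counts and were not tested. The widely expressed forms were all present, with mean levels over all libraries of 309 CPM for Cox4i1, 254 CPM for Cox6a1, 209 CPM for Cox7a2, 169 CPM for Cox8a and 289 CPM for Ndufa4. Cox6b2, known as the testis form of subunit 6b, was the exception: it was detected in every library at 69.5 to 134.7 CPM. Per kb of deposited length it stood at 95.2 CPM, beside 203 CPM for the widely expressed Cox6b1. Over the principal transcript alone Cox6b2 stood at 180 CPM per kb and Cox6b1 at 233 CPM per kb. The 3 genes for the subunit c ring of ATP synthase encode the same mature protein. Their levels per kb of deposited length were 151 CPM for Atp5g3, 49.8 CPM for Atp5g2 and 47.1 CPM for Atp5g1. Over the principal transcript alone these were 455, 114 and 49.1 CPM per kb, in the same order. Of the 76-base stretches of the principal Atp5g2 transcript, 86.9% occur in other genes, so its count is uncertain.

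**Figure D1:**
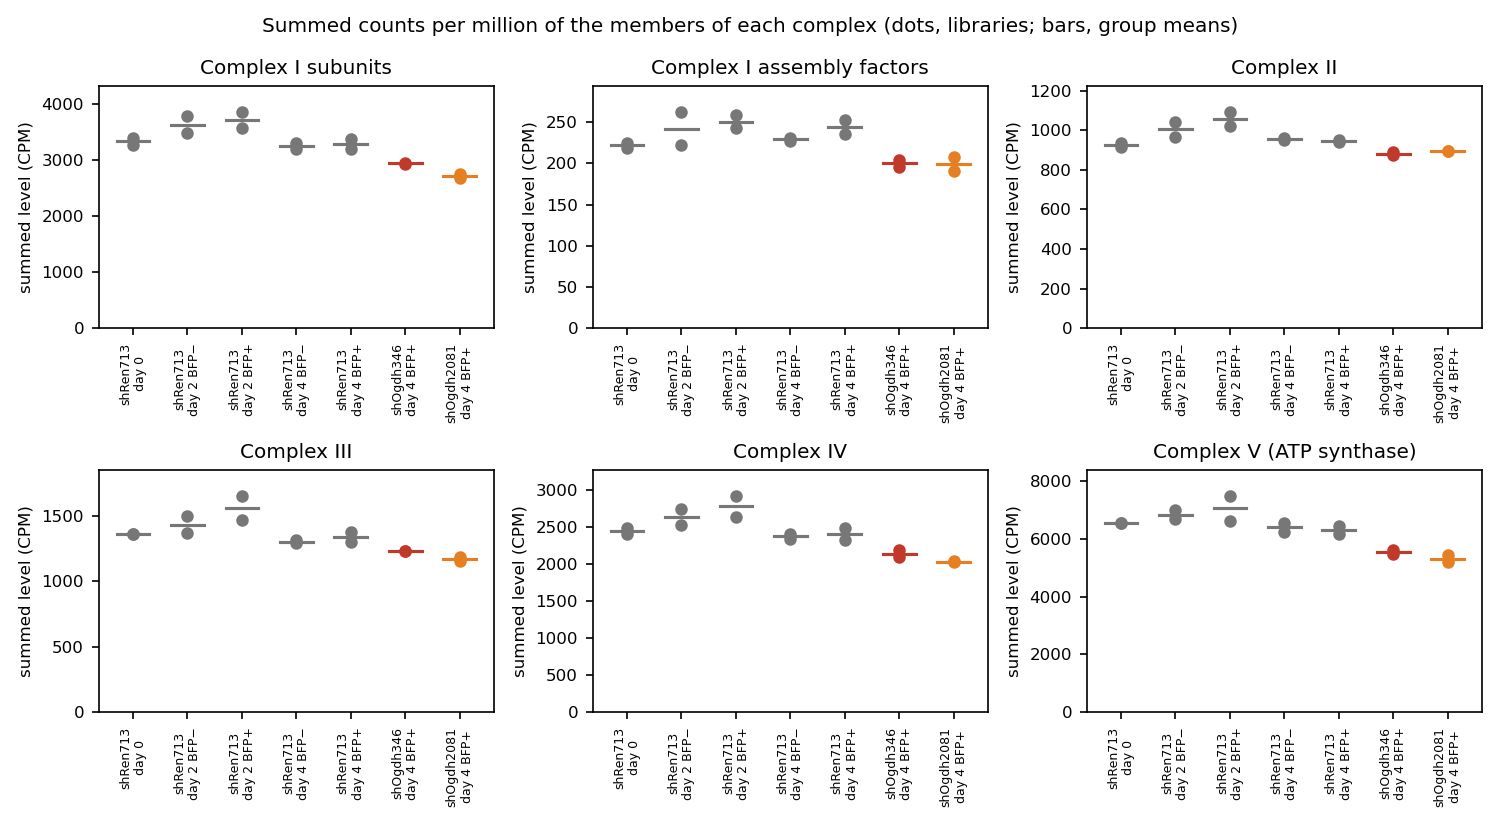
Summed level in CPM (vertical axis, from 0) of all members of each complex in each of the 14 libraries (dots) of the 7 groups, with group means (bars). For complex I the Ogdh hairpin libraries lie between 2677 and 2949 CPM, below the control BFP positive libraries of day 4 at 3198 and 3376 CPM.

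The first comparison asked how the members stood in Ogdh hairpin cells against induced control cells at day 4. Most members had lower levels with the hairpins. The share of all counts that fell on members was 1.215% to 1.317% in the 4 Ogdh hairpin libraries and 1.415% to 1.665% in the 10 control libraries, with no overlap. Summed over members, the level was 12320 ± 212 CPM with shOgdh2081 and 12920 ± 212 CPM with shOgdh346 (SD, n = 2 each), against 14530 ± 495 CPM in control BFP positive cells and 14500 ± 354 CPM in control BFP negative cells. In these bulk samples fewer cells of a type and less RNA per cell cannot be told apart.

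Of 85 members tested, 30 fell (adjusted p under 0.05 in edgeR's quasi-likelihood test), 1 rose and 54 did not pass. Of all genes tested, 8.36% passed as lower and 7.72% as higher. The median log2 fold change of the members was -0.21, against 0.00024 over all genes tested, and 77 of 85 members were below 0. In 47 members all 4 Ogdh libraries lay below both control BFP positive libraries (19.0% of all genes tested), and in 38 they also lay below both BFP negative libraries of day 4 (13.3% of all genes tested). The decreases were of moderate size: the strongest among called members were -0.52 (Atp5k), -0.51 (Ndufaf4), -0.49 (Ndufa3), -0.48 (Cox5a) and -0.47 (Atp5j) on the log2 scale.

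These counts rested strongly on the control libraries. Without control BFP positive replicate 1, the share of members called lower was not above that of all genes, and the median was -0.16. Without replicate 2 of that group the median was -0.28, and without shOgdh2081 replicate 2 it was -0.24. Fewer members were called in each of these fits than with all libraries. For this reason the mean of both sorted control groups of day 4 (4 libraries) was added as a control after the data were seen. Against it, 46 members fell and 1 rose, with 13.2% of all genes lower and 13.1% higher, and the median was -0.22. Each of the 8 libraries of this comparison was also left out in turn. The median over these fits ran from -0.18, without control BFP positive replicate 1, to -0.24. With all libraries DESeq2 called 25 members lower, beside 6.72% of all genes.

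**Figure D2:**
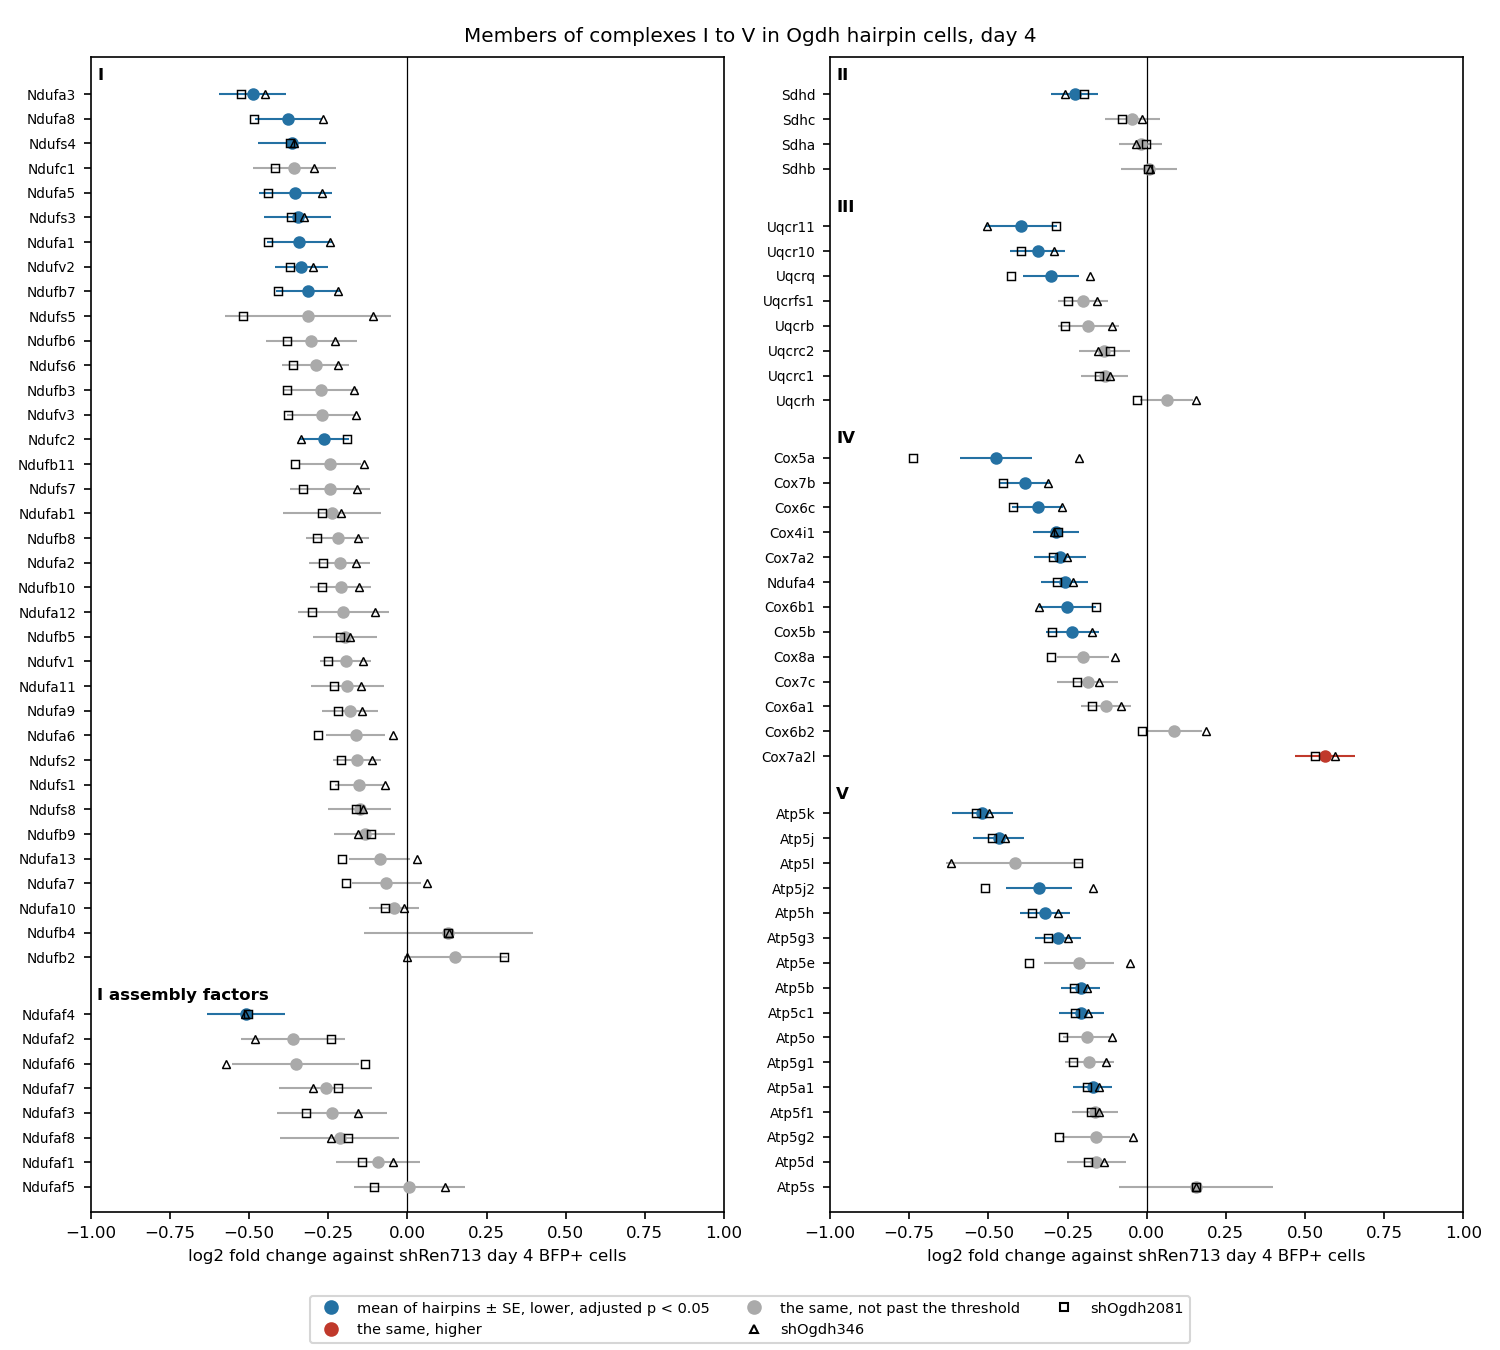
Log2 fold change of Ogdh hairpin cells against control BFP positive cells at day 4 (horizontal axis) for the 85 tested members by complex. Filled circles with bars are the mean of both hairpins ± SE, open triangles shOgdh346 and open squares shOgdh2081; 30 members were called lower, and Cox7a2l lies alone at 0.56.

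In the first comparison cytochrome c oxidase had the largest share of called members, 8 of 13 lower and 1 higher. The median log2 fold changes lay closer together, at -0.25 in complex IV, -0.21 in complex V and -0.19 in complex III. They were -0.23 in complex I subunits, -0.25 in the assembly factors and -0.03 in complex II. Against both sorted control groups 12 of 16 members of complex V were lower, beside 9 of 13 of complex IV. Cox7b, a small nuclear-encoded subunit, stood at 154, 178, 189 and 187 CPM in the 4 Ogdh libraries (shOgdh2081 first, then shOgdh346), and at 250 and 215 CPM in control BFP positive cells. All 4 Ogdh libraries were below both controls, and the log2 fold change was -0.38 ± 0.079 (SE, adjusted p = 0.000255). Cox6c, another small membrane subunit, changed by -0.34 ± 0.081 (adjusted p = 0.0015). Cox4i1 is the common form of subunit 4 and one of the largest nuclear-encoded subunits. It stood at 250 to 272 CPM in the Ogdh libraries and at 329 and 315 CPM in controls. The change was -0.29 ± 0.073 (adjusted p = 0.00338). The calls of Cox7b and Cox4i1 were lost in 1 of 18 alternatives each, and that of Cox6c in 2.

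Cox5a, which binds next to Cox4i1 in the assembled enzyme, differed more between libraries. Its level was 72.4 and 42.1 CPM with shOgdh2081, 73.4 and 59.9 CPM with shOgdh346, and 81.1 CPM in both control BFP positive libraries. The low value of shOgdh2081 replicate 2 set most of the difference between hairpins, and the change over both hairpins was -0.48 ± 0.12 (adjusted p = 0.00219). It was no longer called without that library. The other called members of complex IV were Cox7a2, Ndufa4, Cox6b1 and Cox5b, at -0.24 to -0.27; Cox8a, Cox7c, Cox6a1 and Cox6b2 did not pass, with values of -0.20, -0.19, -0.13 and 0.09.

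Cox7a2l moved the opposite way. It encodes a protein of the Cox7a family, also called SCAFI, that is known to join complex III and complex IV into a supercomplex. The gene lies at chr17:83501919-83514333 on the minus strand (GRCm38). Its level was 121.7, 121.2, 125.96 and 129.2 CPM in the 4 Ogdh libraries and 85.5 and 82.1 CPM in control BFP positive cells. Across all 10 control libraries it ranged from 66.0 CPM at day 0 to 95.7 CPM at day 2, so the Ogdh libraries lay above every control library. The log2 fold change was 0.56 ± 0.094 (adjusted p = 1.1e-05), and it was called higher under all 18 alternatives run for the comparison of both hairpins, with values from 0.53 to 0.66. Of the 76-base stretches of its principal transcript, 15.1% are shared with other genes, among them 1 pseudogene. Its relative Cox7a2 fell, with 165 to 176 CPM in the Ogdh libraries and 210 and 201 CPM in control BFP positive cells (-0.27 ± 0.082, adjusted p = 0.0146).

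ATP synthase had 8 of 16 members called lower and none higher. Atp5k, subunit e of the membrane part, stood at 74.6 and 68.0 CPM with shOgdh2081 and at 72.7 and 68.5 CPM with shOgdh346, against 104 and 97.9 CPM in control BFP positive cells. The groups did not overlap, and the change was -0.52 ± 0.096 (adjusted p = 5.59e-05), called lower under all 18 alternatives run. Its promoter carries the NRF1 match printed above. Atp5j, coupling factor 6 of the peripheral stalk, stood at 168, 157, 169 and 155.8 CPM against 241 and 205 CPM, a change of -0.47 ± 0.082 (adjusted p = 2.18e-05). The stalk subunit Atp5h (-0.32 ± 0.080) and the c-ring gene Atp5g3 (-0.28 ± 0.073) also fell.

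The catalytic subunits changed less, from far higher levels. Atp5b stood at 1961 to 2125 CPM in the Ogdh libraries and at 2407 and 2365 CPM in control BFP positive cells (-0.21 ± 0.062, adjusted p = 0.0135). Its call was lost in 5 of 18 alternatives, with the same sign throughout. Atp5a1 was called at -0.17 (adjusted p = 0.048), as were Atp5j2 (subunit f) at -0.34 and Atp5c1 (gamma) at -0.21. Atp5l and Atp5s did not pass, with values of -0.42 ± 0.22 and 0.16 ± 0.24, and both had low counts.

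Complex I had 9 of 36 subunits called lower. By role these were 2 of 7 core subunits, the conserved part that carries the electrons, and 7 of 29 accessory subunits. Ndufa3, an accessory subunit of the membrane arm, stood at 63.6, 57.5, 61.8 and 62.5 CPM in the Ogdh libraries and at 88.7 and 79.7 CPM in control BFP positive cells. All 4 Ogdh libraries were lower, with a change of -0.49 ± 0.11 (adjusted p = 0.0006). Control BFP negative cells stood at 72.1 and 68.6 CPM, closer to the Ogdh libraries, and against them alone Ndufa3 was not called. The core subunit Ndufv2, which carries an iron-sulfur cluster, changed by -0.33 ± 0.084 (adjusted p = 0.00303), and the accessory subunits Ndufa8 and Ndufs4 by -0.38 ± 0.11 and -0.36 ± 0.11. The call of Ndufs4 was lost in 5 of 18 alternatives and that of Ndufa8 in 2, with DESeq2 among them for both. That of Ndufa3 was lost in 3 and that of Ndufv2 in 1. Ndufs4 is known from the mouse model of Leigh syndrome.

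Among the complex I assembly factors only Ndufaf4 was called of 8 tested. It stood at 43.9, 47.0, 46.1 and 45.4 CPM in the Ogdh libraries and at 64.8 and 66.7 CPM in control BFP positive cells (-0.51 ± 0.12, adjusted p = 0.00219). The range over the other control libraries, 41.1 to 78.4 CPM, included the Ogdh values. The call of Ndufaf4 was lost in 1 of 18 alternatives. The remaining 7 factors had values from -0.36 (Ndufaf2) to 0.01 (Ndufaf5). Ndufa1 (-0.34 ± 0.10) and Ndufc2 (-0.26 ± 0.080), small membrane subunits of complex I, completed the members named by rule in this complex. The call of Ndufc2 was lost in 8 of 18 alternatives, among them BFP negative cells as the control, and that of Ndufa1 in 6 of 18, with the same sign throughout.

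In complex III, 3 of 8 members fell, all of them small subunits without a redox group. Uqcr11 stood at 53.7, 54.5, 49.6 and 36.8 CPM against 70.2 and 61.1 CPM (-0.40 ± 0.11, adjusted p = 0.0105), Uqcr10 changed by -0.34 ± 0.087 and Uqcrq by -0.30 ± 0.089. The call of Uqcr11 was lost in 4 of 18 alternatives and that of Uqcrq in 5, with DESeq2 among them for both. That of Uqcr10 was lost in 1. The Rieske iron-sulfur protein gene Uqcrfs1 and the core protein genes Uqcrc1 and Uqcrc2 did not pass, with values of -0.20, -0.13 and -0.13. Uqcrh, the hinge protein gene, was at 0.06 and was the single member of this complex above 0.

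In complex II, 1 of 4 members was called lower. The catalytic subunits Sdha (flavoprotein) and Sdhb (iron-sulfur protein) had log2 fold changes of -0.02 ± 0.069 and 0.0069 ± 0.088, and the anchor Sdhc -0.05 ± 0.087. Sdha stood at 348 to 383 CPM with Ogdh hairpins and at 357 and 367 CPM in control BFP positive cells, with overlapping groups. The anchor Sdhd was lower, with 276, 284, 271 and 269 CPM against 320 and 327 CPM (-0.23 ± 0.073, adjusted p = 0.0245). Its call was lost in 10 of 18 alternatives, all with the same sign. The difference between complex II and the other complexes was not tested.

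**Figure D3:**
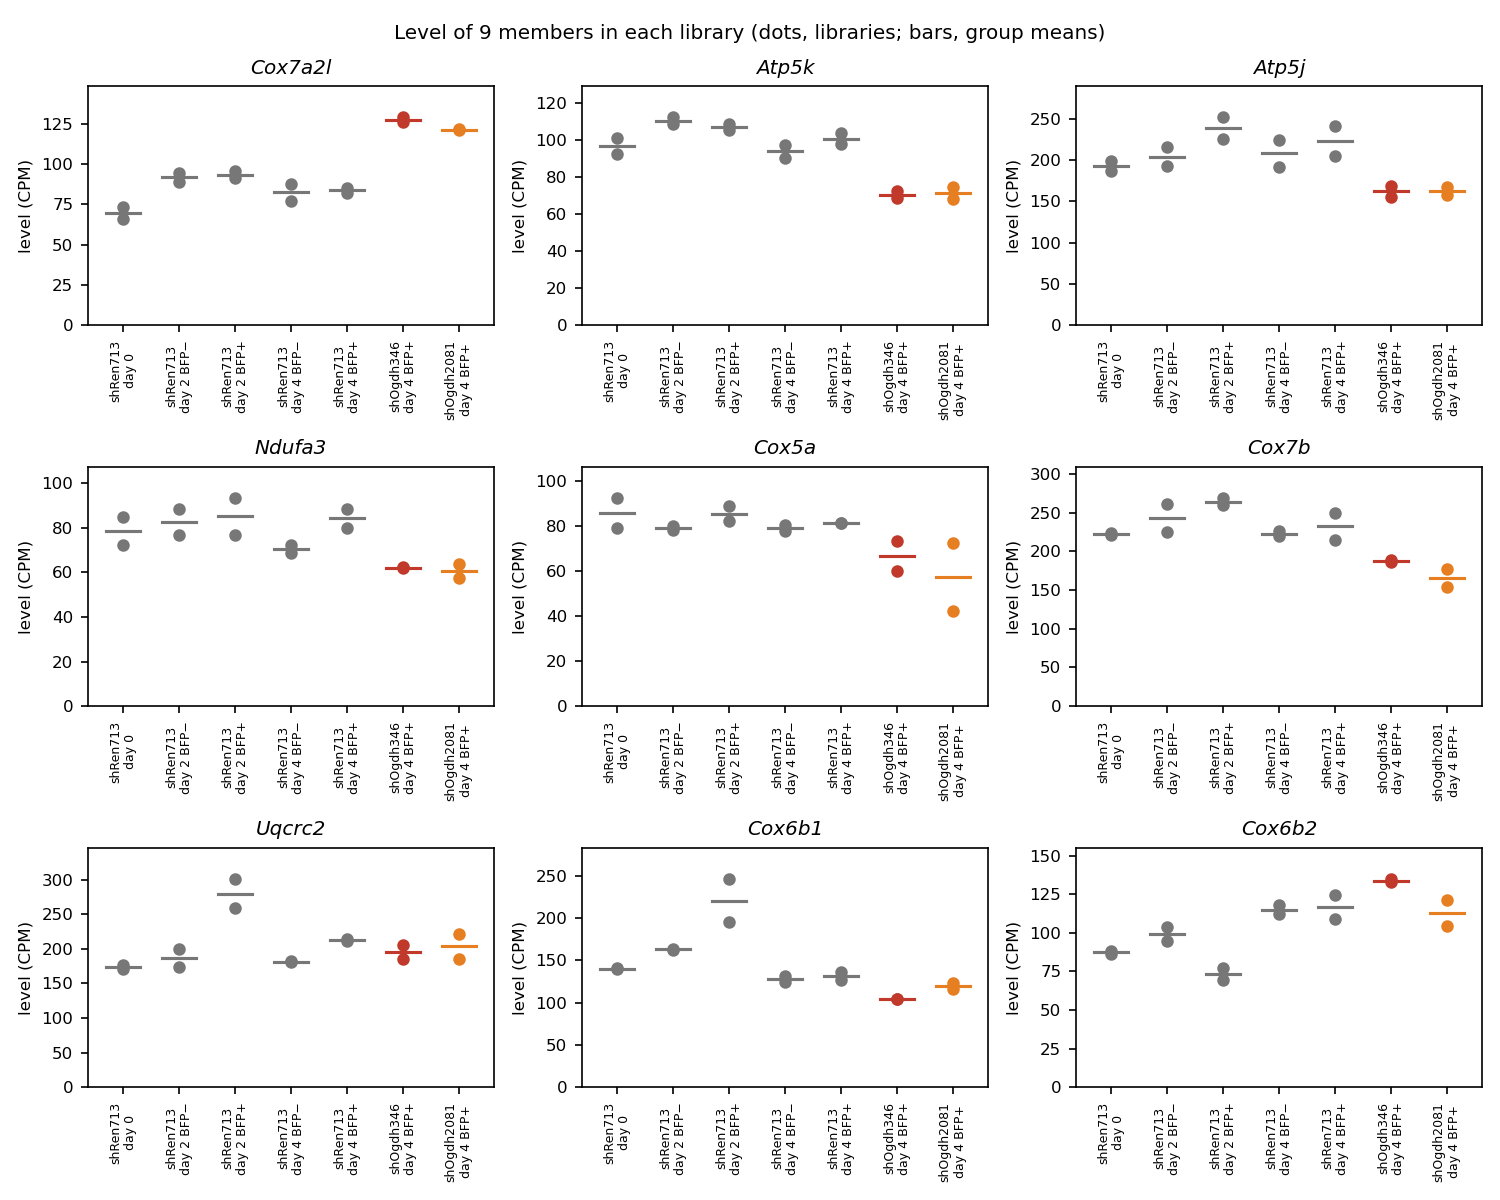
Level in CPM (vertical axes, from 0) of 9 members in each of the 14 libraries (dots) with group means (bars). Cox7a2l is highest in the Ogdh hairpin libraries (121.2 to 129.2 CPM), whereas Uqcrc2 and Cox6b1 are highest and Cox6b2 lowest in control BFP positive cells of day 2.

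Considered singly, both hairpins gave decreases. With shOgdh346, 16 members fell and 1 rose (5.60% of all genes lower, 5.58% higher), with a median of -0.16. With shOgdh2081, 28 fell and 1 rose (5.53% lower, 6.02% higher), with a median of -0.26. Cox7a2l was the member called higher with each, at 0.60 ± 0.11 and 0.53 ± 0.11, and Atp5k changed by -0.50 and -0.54. Between the hairpins no member was called (0.0834% of all genes in either direction), 8 members had an unadjusted p under 0.05, and DESeq2 called 0. As a set the members were lower with shOgdh2081 than with shOgdh346: 70 of 85 were below 0, with a median of -0.085. The median over all genes tested was 0.0018. This shift of the set was not tested. The widest gap between hairpins was in Cox5a, at -0.52 ± 0.14 for shOgdh2081 against shOgdh346 (adjusted p = 0.143). Both hairpins share the control libraries, and without control BFP positive replicate 1 the calls with shOgdh346 were 0 lower and 1 higher, and those with shOgdh2081 were 2 lower and 1 higher. Without shOgdh2081 replicate 2 they were 4 lower and none higher with shOgdh2081, so the call of Cox7a2l with that hairpin alone was lost. Leaving out any 1 of the 4 libraries of each comparison left 1 to 11 calls with shOgdh346 and 3 to 17 with shOgdh2081, and without shOgdh2081 replicate 1 a single member differed between hairpins.

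Against uninduced control cells of day 4, which share the Ogdh libraries with the first comparison, 35 members fell and Cox7a2l rose (10.3% of all genes lower, 10.5% higher). The median was -0.21. The smallest adjusted p-values belonged to Cox7a2l (0.61 ± 0.083), Cox6c (-0.41 ± 0.074), Atp5k (-0.42 ± 0.085) and Atp5j (-0.37 ± 0.076). By complex, 9 of 13 members of complex IV, 9 of 16 of complex V, 4 of 8 of complex III, 10 of 36 of complex I and 1 of 4 of complex II were called lower. Without BFP negative replicate 1 the median was -0.17, and without replicate 2 of that group it was -0.23. It was -0.21 without shOgdh2081 replicate 2 and -0.22 without shOgdh346 replicate 1. Each of these fits called fewer members than the fit of all libraries.

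The members are short, with a median deposited length of 1701 bases against 4300 bases over all genes tested, and short genes were lower as a whole in the first comparison. The median log2 fold change over all genes was -0.07 among the shortest 20% and 0.07 among the longest 20%. In the shortest class, 11.2% of all genes were called lower, beside 23 of 61 members (37.7%). In the next class the shares were 9.93% of all genes and 4 of 12 members. With a length trend removed from each library, 21 members were called lower and 1 higher, beside 8.23% and 7.06% of all genes. The median was -0.18. With the mean of both sorted control groups as control, the same correction left 32 lower and 2 higher, beside 13.5% and 12.4% of all genes.

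**Figure D4:**
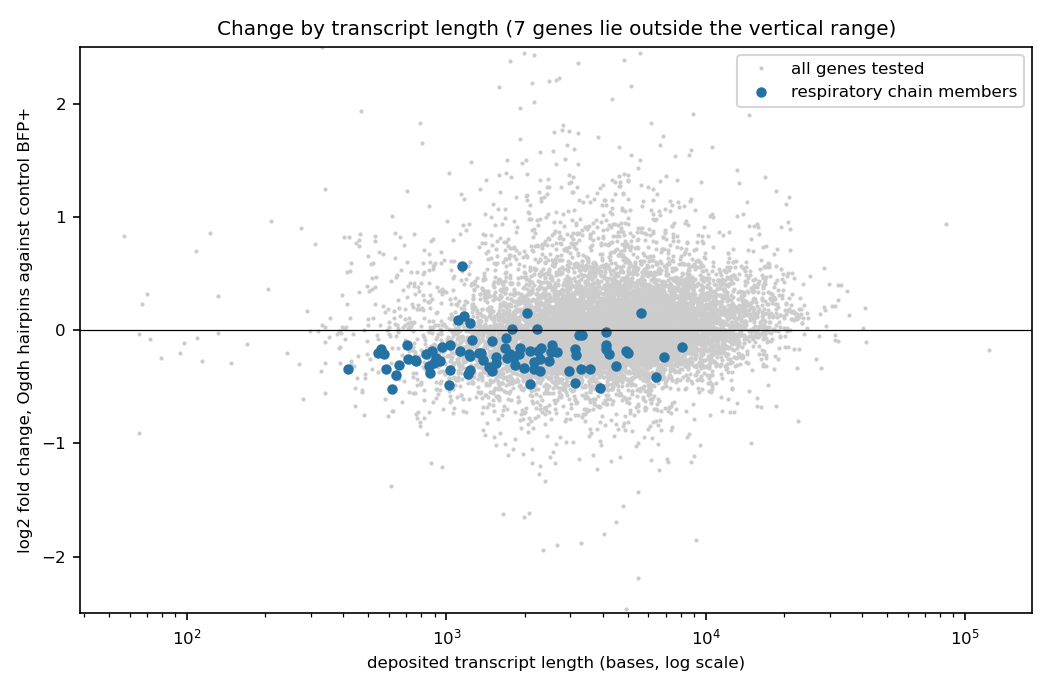
Log2 fold change of Ogdh hairpin cells against control BFP positive cells at day 4 (vertical axis) against the deposited transcript length (horizontal axis, log scale) for all genes tested (grey) and the 85 members (blue). The members span 419 to 8086 bases and most lie below 0, and 7 genes fall outside the vertical range.

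In control cells the members were highest at day 2 of doxycycline. The summed level was 14820 ± 106 CPM at day 0, 15780 ± 757 CPM in BFP negative and 16410 ± 1170 CPM in BFP positive cells of day 2, and 14500 ± 354 and 14530 ± 495 CPM at day 4 (SD, n = 2 each). Against day 0, 19 members rose and none fell in BFP positive cells of day 2 (9.10% of all genes higher), with a median of 0.16. In BFP negative cells of day 2, 7 rose and none fell (5.33% of all genes higher), with a median of 0.12. A share of 7 of 85 is close to that background. Both comparisons share the day 0 libraries.

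In BFP positive cells of day 2 the members with the smallest adjusted p were Uqcrc2, Cox6b1, Ndufc2 and Uqcrh. Uqcrc2, core protein 2 of complex III, stood at 301 and 259 CPM against 171 and 177 CPM at day 0 (0.70 ± 0.092, adjusted p = 3.02e-08). Cox6b1, which helps hold the cytochrome c oxidase dimer together, stood at 246 and 195 CPM against 140.2 ± 1.09 CPM (SD, n = 2) at day 0 (0.68 ± 0.096, adjusted p = 1.83e-07). Ndufc2 stood at 211 CPM in both libraries, against 149 and 146 CPM at day 0. In these 3 genes the day 2 BFP positive libraries lay above all other libraries of the study, whereas Uqcrh, at 266 and 241 CPM, overlapped day 2 BFP negative replicate 2 at 269 CPM. In BFP negative cells of day 2 the leading members were Uqcrh (0.39 ± 0.094), Cox7a2l (0.41 ± 0.11), Ndufa6 (0.35 ± 0.10) and Cox6c (0.31 ± 0.087). The medians against day 0 also depended on single libraries. In BFP positive cells the median was 0.098 without BFP positive replicate 1 and 0.15 without day 0 replicate 1. In BFP negative cells it was 0.049 without BFP negative replicate 2. It was 0.11 and 0.15 there without day 0 replicate 1 and replicate 2. Each of these fits called fewer members than the fit of all libraries.

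Induced and uninduced control cells of the same day were compared next. At day 2, 5 members were higher in BFP positive cells and 1 lower (6 of 85 tested, against 6.23% of all genes called in either direction), a share near the background. Uqcrc2 differed by 0.58 ± 0.090 (adjusted p = 3.06e-06), Cox6b1 by 0.46 ± 0.092, Ndufc2 by 0.35 ± 0.088, and Cox7a2 and Atp5c1 by 0.30 ± 0.089 and 0.27 ± 0.082. Cox6b2, the testis form, went the other way, with 69.5 and 77.0 CPM in BFP positive cells against 104 and 94.9 CPM in BFP negative cells (-0.45 ± 0.12, adjusted p = 0.00916). Only 1 member was called without BFP positive replicate 1, 3 without BFP negative replicate 1 and 10 without BFP negative replicate 2.

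At day 4 no member differed between BFP positive and BFP negative control cells (0.0741% of all genes called in either direction); 2 had an unadjusted p under 0.05, and DESeq2 called 0. Uqcrc2 and Cox6b2 then differed by 0.23 ± 0.086 and 0.04 ± 0.095. A test of the day 2 difference minus the day 4 difference, added after the data were seen, called no member (0.658% of all genes called in either direction), with 5 members at an unadjusted p under 0.05 and 0 called by DESeq2. Its smallest adjusted p was 0.139, for Cox6b1 (0.42 ± 0.13) and Cox6b2 (-0.49 ± 0.15). Without day 2 BFP positive replicate 2, 1 member was called. The days were therefore not shown to differ for any single member with all libraries.

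By day 4 the control cells were close to day 0. In BFP negative cells Cox6b2 rose (0.39 ± 0.099, adjusted p = 0.00684) and 4 members fell (4.19% of all genes lower, 3.84% higher): Ndufa11 (-0.39 ± 0.11) and Ndufb7 (-0.33 ± 0.099), accessory subunits of complex I, Uqcrq (-0.30 ± 0.089), and Atp5d (-0.31 ± 0.094), the delta subunit of ATP synthase. In BFP positive cells Cox6b2 (0.43 ± 0.11) and Uqcrc2 (0.29 ± 0.093) rose and Ndufb7 fell (-0.36 ± 0.11), with 3.65% of all genes lower and 3.46% higher. Cox6b2 went from 86.2 and 88.3 CPM at day 0 to 118 and 112 CPM in BFP negative and 125 and 109 CPM in BFP positive cells of day 4. These shares of members are near the background. None of the calls held without either day 0 library; without BFP negative replicate 2, 1 call was left in BFP negative cells, and in BFP positive cells 0 and 1 were left without replicate 1 and replicate 2.

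Other genes of the pathway, taken from lists of known factors, were set beside the members in the first comparison, in which 8.36% of all genes tested were lower and 7.72% higher. Of the cytochrome c and assembly genes, 46 of 52 were tested, 6 fell, none rose, and the median was -0.12. The 4 with the smallest adjusted p were Usmg5, a small subunit associated with ATP synthase (-0.55 ± 0.11), Foxred1, a complex I assembly factor (-0.56 ± 0.12), Lrpprc, which stabilises mitochondrial mRNAs (-0.28 ± 0.078), and Cyc1, cytochrome c1 of complex III (-0.24 ± 0.072). Of 13 coenzyme Q synthesis genes, 2 fell (Coq2 at -0.47 ± 0.12 and Coq4 at -0.70 ± 0.24) and the median was -0.11. Of 15 tested transcription factors and coactivators known for these genes, 1 fell, Tfam, the factor that packages and transcribes mitochondrial DNA (-0.28 ± 0.089), and the median was 0.04. The called genes of these 3 lists are few, and no difference from that background is read from them.

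Of 13 subunits encoded in mitochondrial DNA, 7 passed the filter. The others, such as mt-Co2, had 0 or 1 counts in all. Why so few reads were counted for them was not tested, and the multiple-mapping setting is not stated. The counts of the 7 that passed are therefore uncertain as well. In the first comparison mt-Co1, the catalytic subunit of complex IV, rose (0.34 ± 0.066, adjusted p = 0.000133), mt-Nd1 of complex I fell (-0.24 ± 0.069, adjusted p = 0.0102), and the median of the 7 was -0.05. With shOgdh346 alone 2 fell and 1 rose, and with shOgdh2081 alone none fell and 2 rose. Against BFP negative control cells none fell and 3 rose, with a median of 0.06. Between day 0 and day 4 all 7 rose in control cells, with medians of 0.55 in BFP negative and 0.68 in BFP positive cells, beside medians of -0.03 and 0.01 over the 85 nuclear members.

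Returning to the promoters, of the members called lower in the first comparison 26 had a promoter in the table, and 13 of them held at least 1 of the 5 motifs; of the 47 other tested members with a promoter, 23 did (48.9%). The share with the NRF1 motif was 34.6% in the first and 27.7% in the second, and both ERR matches were in members called lower. No test was made of these shares.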

How the data were processed

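RNA of 14 libraries was polyA-selected and sequenced as single-end reads, per the labels' protocols. The submitters' processing notes name FastQC 0.11.5, Trimmomatic 0.36, STAR 2.6.1a and featureCounts 1.6.3 with GRCm38; a protocol text names a human build and HTSeq instead, and neither source states the strand or multiple-mapping setting. The authors deposited raw counts per gene, with a transcript length in bases beside each count (another value, equal to the union of annotated exons for 77 of 92 members). Library totals were 913482 to 10271698 counts, so low counts limit the precision of rare members.

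Counts were analysed in R 4.3.3 with edgeR 4.0.16 (filterByExpr, TMM, quasi-likelihood F test): 1 model of all 7 groups over 10791 genes, with Benjamini-Hochberg adjusted p under 0.05 over all of them as the threshold for a call. Levels are CPM over TMM-scaled library sizes. The method was tested on simulated data. With 2 libraries a group, the smallest exact permutation p is 0.333, so calls rest on a spread shared across genes. By replicate number, the correlation of deviations over 21 pairs of groups was -0.082 to 0.15. The library names order the shOgdh346 replicates the other way round than those of the other groups. Pairing by library name was not tested. Alternatives were DESeq2 1.42.0, other scaling and filters, a length correction, thinning to 913482 counts and leaving out libraries. Members, gene lists and roles were chosen with earlier results of these data known. Named members were, in each complex, the called ones with the smallest adjusted p (up to 6 for complex I, 5 elsewhere), those called higher, the highest and lowest by level per length, and the tissue forms; in other comparisons the 4 with the smallest adjusted p; further members named were chosen after their values were seen. Gene positions are as the deposited count table gives them (GRCm38), promoters from RefSeq.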

Additional observations from a re-analysis of the deposited data

How the results depend on the processing

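Counts of members called are compared here with those of the main analysis. In DESeq2, 13 of 85 members were lower against control BFP positive cells, beside 3.72% of all genes. With shOgdh346 alone 2 were lower (1.98% of all genes, a close share), and with shOgdh2081 alone 13 (2.38%). Against BFP negative cells 12 were lower (3.92%). Thinned, the numbers in this order were 12 (3.79%), 6 (2.02%), 12 (2.4%) and 7 (3.38%). With the centred length correction they were 21 (8.23%), 10 (5.99%), 18 (5.32%) and 20 (10.6%). Against control BFP positive cells the 31 calls became 14 in DESeq2, 13 with libraries thinned to equal depth, 18 without the shallower library of each Ogdh hairpin, and 47 against both sorted control groups (chosen after seeing the data); leaving out 1 library gave 2 to 27. For shOgdh346 the 17 calls became 3 in DESeq2, 10 with no filter, 11 and 10 with the length correction (centred and not), 7 thinned, and 1 to 11 with a library left out. For shOgdh2081 the 29 calls became 14 in DESeq2, 19 with either length correction, 13 thinned, and 3 to 17 with a library left out. Between hairpins the 0 calls became at most 1, without shOgdh2081 replicate 1. Against BFP negative cells the 36 calls became 13 in DESeq2, 22 with either length correction, 8 thinned, 19 without the shallower libraries, and 16 to 27 with a library left out.

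In control cells, BFP positive against BFP negative at day 2 gave 6 calls, 3 in DESeq2, 3 thinned and 1 to 10 with a library left out; at day 4 it gave 0 throughout. Against day 0, the 7 calls of BFP negative cells at day 2 became 0 in DESeq2, 4 with no filter, 0 thinned and 0 to 9 with a library left out. The 19 of BFP positive cells at day 2 became 8 in DESeq2, 8 thinned and 7 to 21. The 5 of BFP negative cells at day 4 became 0 in DESeq2, 2 with no filter, 0 thinned and 0 to 5. The 3 of BFP positive cells at day 4 became 1 in DESeq2, 5 with either length correction, 1 thinned, 9 with only the compared groups fitted, and 0 to 1.

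With the replicate block the first comparison had 33 calls, and the block moved no count of calls by over 1.5 times. The block followed the replicate numbers, which for shOgdh346 run against the order of the library names. Against day 0, DESeq2 called 1.42% of all genes higher in BFP negative cells of day 2, beside 0 members. In BFP positive cells of day 2 it called 4.21% higher, beside 8 members. For day 4 the shares in BFP negative cells were 2.11% lower and 1.32% higher, beside 0 members. In BFP positive cells they were 2.02% and 1.54%, beside 1 member higher. For BFP positive against BFP negative cells of day 2 they were 1.07% and 0.992%, beside 3 members higher. Thinning and leaving out libraries leave fewer counts or fewer libraries. The cause of the other differences was not tested. Of the 21 called members named by rule in the first comparison, none changed sign in any alternative. They were chosen by adjusted p in the same libraries, so a stable sign is no measure of robustness. Among them only Atp5k and Cox7a2l kept their call in every alternative. The others lost it at least without control BFP positive replicate 1. Depth limits the rarest members, since 1 Ogdh library held 913482 counts.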
